A study of Mus musculus with 6 samples.

Results

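The 38 genes described here encode the enzymes, transporters and regulators that burn fatty acids in the liver, with genes known as targets of the nuclear receptor PPARalpha, and they were chosen by name out of the 56674 rows of the count table. All 38 had a row and all 38 passed the expression filter. By role they were 2 regulators, 4 genes of uptake, binding and activation, 4 of the carnitine shuttle, 14 of mitochondrial oxidation, 6 of peroxisomal oxidation, 2 of ketogenesis, 4 acyl-CoA thioesterases and 2 other PPARalpha targets. Liver RNA came from male C57BL/6 mice, a common inbred strain, at the end of 71 weeks of rearing. The control mice ate normal chow and the exposed mice ate chow with polyethylene microplastic (PE-MP), with 3 libraries for each chow. The question was whether long feeding of the plastic went with other transcript levels in the liver. The labels state no dose or particle size, no batch or cage, and no link from a library to an animal, so p-values reflect no more than library-to-library spread, part of which may be technical.

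Fatty acids enter hepatocytes through membrane proteins, bind to a carrier in the cytosol and are joined to coenzyme A. The carnitine shuttle carries the long-chain acyl groups into mitochondria, where a repeated cycle of dehydrogenation, hydration, dehydrogenation and thiolysis shortens them, while peroxisomes shorten very long and branched chains. The acetyl-CoA released feeds the citric acid cycle or ketone body synthesis, thioesterases split acyl-CoA back into free acid and coenzyme A, and PPARalpha, bound to DNA with a retinoid X receptor, switches on genes at each of these steps in fasting. Steady-state RNA was measured here, not enzyme activity or oxidation.

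The 6 libraries held 68357478 to 112566641 counts. Mitochondrially encoded RNA took 15.8% ± 0.819 of the counts with normal chow but 9.94% ± 0.218 with PE-MP chow (SD, n = 3 each; exact permutation p = 0.1, the smallest that 3 against 3 libraries allow). Levels are given as CPM, a gene's counts scaled to a common library total, after TMM scaling, a correction for differences in library make-up. The TMM factors were 0.923, 0.879 and 0.900 in the normal chow libraries and 1.07, 1.09 and 1.17 in the PE-MP libraries. They did not overlap between chows, and this scaling lowered the PE-MP level of every gene alike against normal chow. The sign of small changes between chows therefore depends on the scaling. Normal chow library 2 stood apart from the other normal chow libraries. Its 18S rRNA row, Rn18s-rs5, took 11.2% of its counts against 0.334% to 5.98% in the other libraries, and among the 38 genes it was the lowest normal chow library for 31 (81.6%, against 38.7% of all genes tested). Counts are therefore given with and without it. The 8 hepatocyte markers summed to 64151 to 74827 CPM under normal chow, lowest in library 2, and to 69087 to 76155 CPM under PE-MP chow. Alb alone made up most of these sums, at 47559 to 58520 CPM and 52543 to 55670 CPM. Of the 8 markers, 4 had library 2 as their lowest normal chow library.

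No gene of the 38 passed an adjusted p of 0.05 in edgeR's quasi-likelihood test with Benjamini-Hochberg adjustment, in either direction. Of all 18043 genes tested, 0% were called lower and 0.00554% higher. The smallest adjusted p among the 38 was 0.135, for Fabp1, the fatty acid carrier of the liver cytosol. At an unadjusted p under 0.05, 5 of the 38 were lower under PE-MP chow (13.2%, beside 8.82% of all genes) and 1 was higher (2.63%, beside 9.1%). The 5 were Creb3l3, Fabp1, Decr1, Etfb and Acaa1b, and the 1 was the thioesterase gene Acot4. The 3 PE-MP libraries all lay below the 3 normal chow libraries for 3 genes, Fabp1, Decr1 and Etfb (7.89%, beside 11.8% of all genes), and all above them for Acot4 alone (2.63%, beside 14.2%). Of these shares, that of lower genes at the unadjusted p lay above the share among all genes, and the others lay below it. The count of 5 lower genes depended on single libraries: it was 1 when normal chow library 1 was left out, and 2 when normal chow library 3 or else library 3 of PE-MP chow was. The share of all genes in those fits was not counted. A loss among these genes can therefore not be told from a loss over all genes.

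The log2 fold change, here always PE-MP over normal chow, was negative for 26 of the 38 genes (68.4%, beside 48.3% of all genes), and its median was -0.13, beside 0.02 for all genes. For 28 of the 38 (73.7%, beside 49.7%) the whole 95% confidence interval lay between -1 and 1, so a doubling or halving lay outside the interval. The median by role was -0.29 for peroxisomal oxidation, -0.18 for ketogenesis, -0.14 for mitochondrial oxidation, -0.12 for the carnitine shuttle, -0.01 for uptake, binding and activation, 0.09 for the other PPARalpha targets and 0.41 for the thioesterases. The 2 regulators differed in sign, with -3.49 for Creb3l3 and 0.35 for Ppara, so their median of -1.57 describes neither gene. Without normal chow library 1 the median of the carnitine shuttle was 0.12, and that of peroxisomal oxidation was negative with any 1 library left out, from -0.40 to -0.20. Libraries of normal chow also spread more, with a median coefficient of variation of 18.9% over the 38 genes, beside 10.7% under PE-MP chow. All genes tested had 22.4% and 15.2%.

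**Figure D1:**
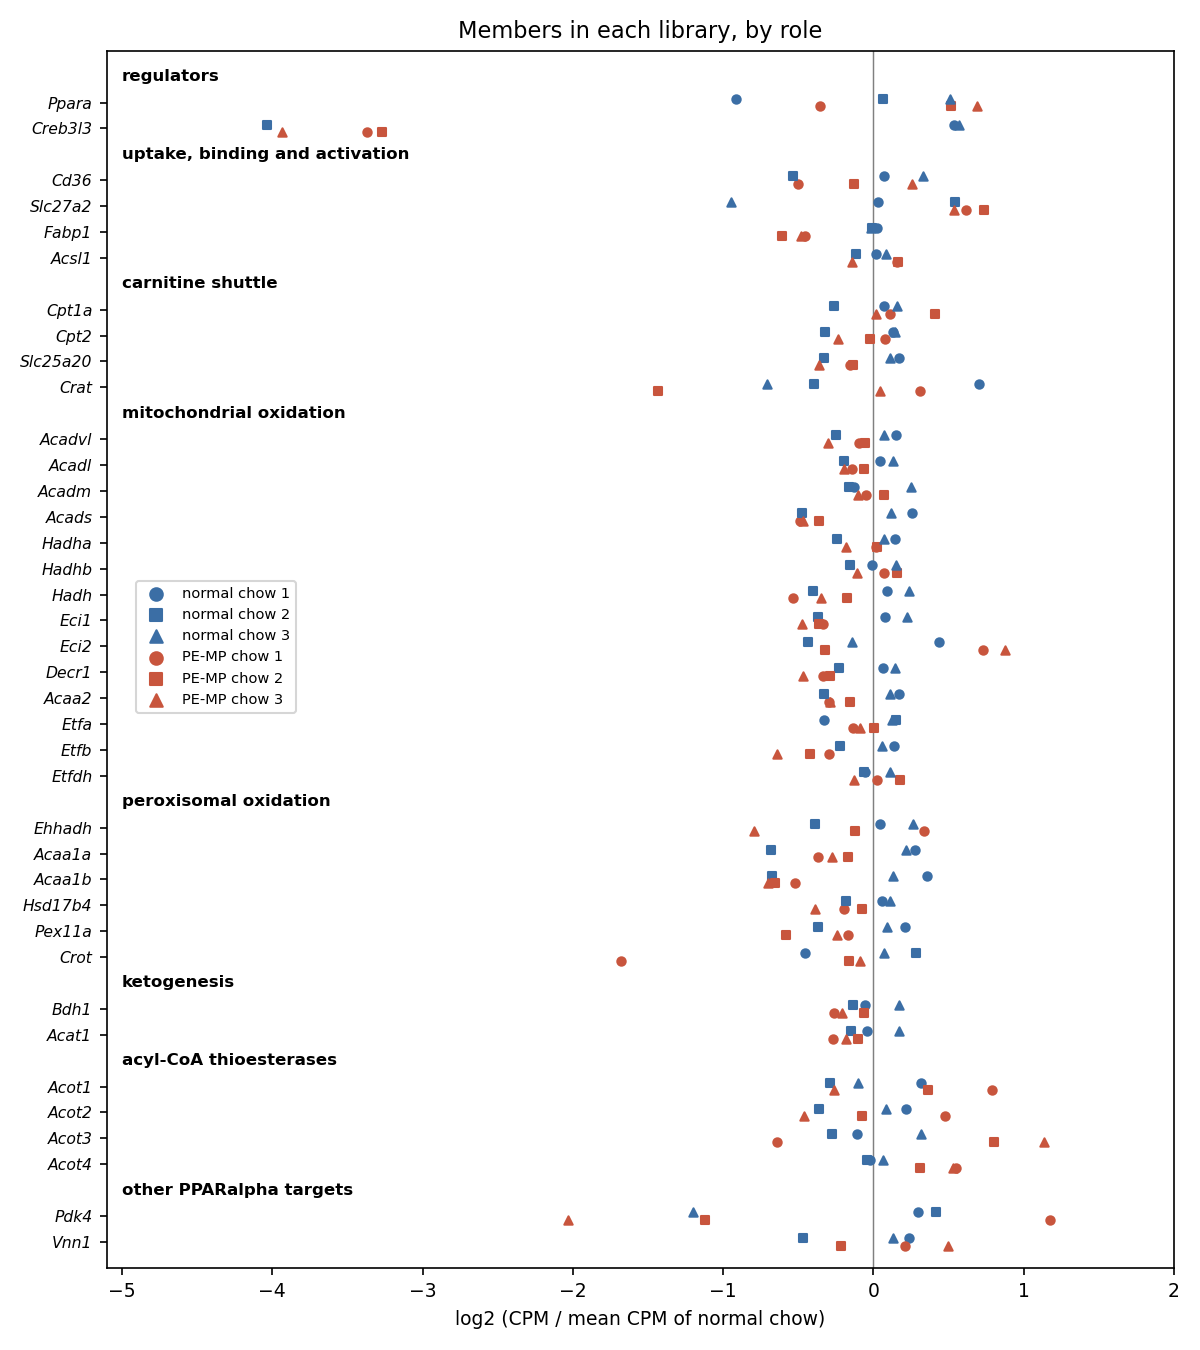
Level of each of the 38 genes in each of the 6 libraries, as the log2 ratio of its CPM to the mean CPM of the 3 normal chow libraries, grouped by role. Blue marks normal chow and red PE-MP chow, and the circle, square and triangle are libraries 1, 2 and 3. The blue square, normal chow library 2, is the lowest normal chow library for 31 of the 38 genes and lies far to the left for Creb3l3.

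Without normal chow library 2, edgeR's quasi-likelihood test called 6 of the 38 genes lower and 0 higher at a Benjamini-Hochberg adjusted p of 0.05, where 3.27% and 2.38% of all genes were called. The 6 were Creb3l3 (adjusted p = 0.00936), Acaa1b (adjusted p = 0.0333), Acads (adjusted p = 0.0363), Eci1 (adjusted p = 0.0440), Fabp1 (adjusted p = 0.0443) and Acaa1a (adjusted p = 0.0479). At an unadjusted p under 0.05, 13 of the 38 were then lower and 2 of the 38 higher, beside 13.7% and 14.7% of all genes. The 2 higher genes were Slc27a2 and Acot4. The share of lower genes lay above that of all genes, and the share of higher genes below it. Normal chow library 2 was the lowest of its group for 31 of the 38, so leaving it out raised their normal chow mean. The rise in lower genes was thus in part set in advance and is no separate support. The median log2 fold change of the 38 was -0.25. DESeq2 on all 6 libraries called 2 lower, Fabp1 and Creb3l3, and 1 higher, Acot4, where it called 3.48% and 3.1% of all genes.

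**Figure D2:**
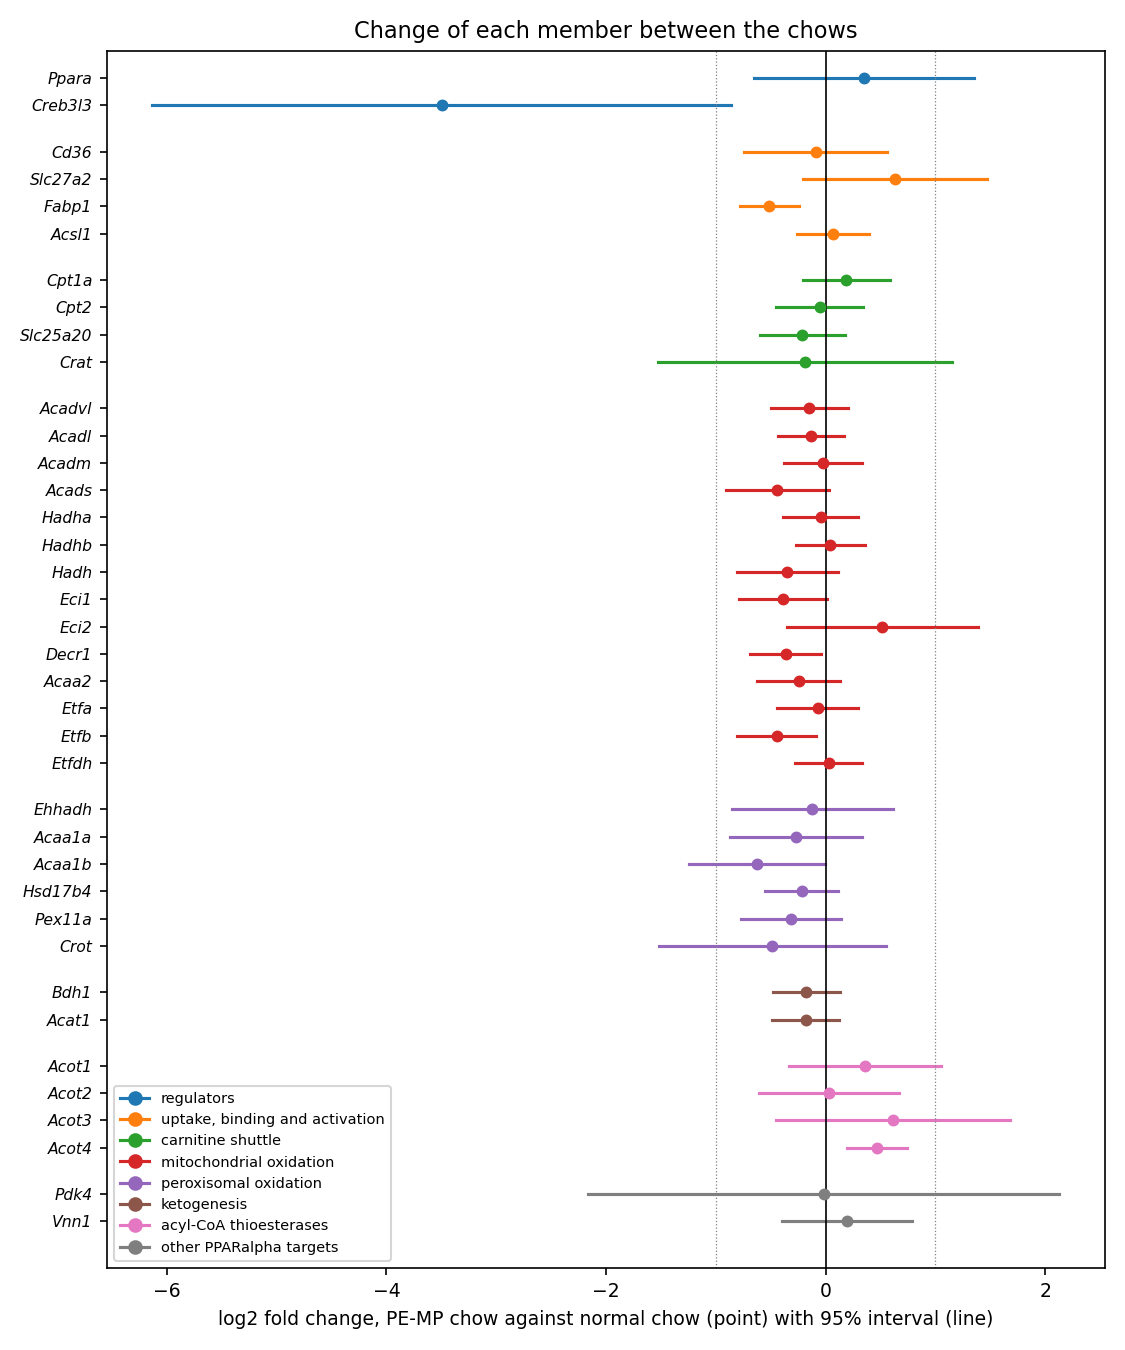
Log2 fold change (PE-MP over normal chow) of each of the 38 genes with its 95% confidence interval from edgeR on all 6 libraries, grouped by role. Dotted lines mark -1 and 1. The intervals of 28 genes lie between these lines, and those of Creb3l3 and Pdk4 are the widest, from -6.13 to -0.86 and from -2.16 to 2.13.

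PPARalpha with its partner binds a direct repeat, the hexamer AGGTCA followed by any 1 base and AGGTCA again. This repeat was searched on both strands, with at most 2 mismatches in its 12 fixed letters, in RefSeq promoter windows of 300 bases (250 before to 50 after the start of the gene, build GRCm38.p6). Of the 38 genes, 32 had a window, 36 windows in all, and 6 windows of 6 genes held a match (16.7%), beside 3.86% of all 32851 windows. The 6 genes were Creb3l3, Cd36, Fabp1, Slc25a20, Etfa and Acot4. A match with at most 1 mismatch stood in the window of Fabp1, and in 0.554% of all windows. Shown are the 250 bases before the start for 3 of them: Fabp1 and Acot4, which had the smallest p in either direction, and Creb3l3, which had the fold change furthest from 0. Capitals mark the match.
Fabp1: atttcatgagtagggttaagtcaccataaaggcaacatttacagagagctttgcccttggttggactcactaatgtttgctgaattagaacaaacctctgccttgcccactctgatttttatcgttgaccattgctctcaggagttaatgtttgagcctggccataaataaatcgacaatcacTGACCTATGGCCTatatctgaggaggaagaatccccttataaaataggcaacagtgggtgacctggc
Acot4: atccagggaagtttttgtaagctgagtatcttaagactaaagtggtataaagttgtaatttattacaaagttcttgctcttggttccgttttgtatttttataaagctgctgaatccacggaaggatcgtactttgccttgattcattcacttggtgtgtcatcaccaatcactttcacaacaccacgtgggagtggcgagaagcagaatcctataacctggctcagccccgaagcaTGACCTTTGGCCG
Creb3l3: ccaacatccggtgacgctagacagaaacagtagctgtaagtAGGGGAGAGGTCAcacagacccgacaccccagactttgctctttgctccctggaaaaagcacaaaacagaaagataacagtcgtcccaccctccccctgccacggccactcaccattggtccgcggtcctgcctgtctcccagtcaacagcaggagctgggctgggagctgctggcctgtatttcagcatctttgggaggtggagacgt
The Fabp1 stretch is chr6:71199629-71199878 on the plus strand, and its match, on the reverse strand, begins 67 bases before the start. That of Acot4 is chr12:84038129-84038378 on the plus strand, and its match, also on the reverse strand, covers the last 13 bases before the start. That of Creb3l3 is chr10:81092592-81092841 on the minus strand, with a forward match that begins 209 bases before the start. A second listed start of Creb3l3 had no match in its window. Cd36 held TGGCCTCTGACTT, Etfa held TTACCTTTGCCCT and Slc25a20 held AGGTGAAAGGTCG, which in Slc25a20 lies after the start. The 6 genes with a match had log2 fold changes on both sides of 0, from -3.49 for Creb3l3 to 0.47 for Acot4. A match is a description of letters, not of binding, which was not measured.

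The regulators differed in how they varied. Ppara, the gene of the receptor itself, had 76.6, 151 and 205 CPM in normal chow libraries 1, 2 and 3 and 113, 207 and 232 CPM in the PE-MP libraries. The chows overlapped widely, and the log2 fold change was 0.35 ± 0.42 (SE; 95% interval -0.65 to 1.35; edgeR adjusted p = 0.686). Under both chows, library 1 had the lowest level.

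Creb3l3 encodes CREBH, a transcription factor of the endoplasmic reticulum membrane that is released in fasting and acts with PPARalpha. It had 299 and 306 CPM in normal chow libraries 1 and 3, and 12.6 CPM in normal chow library 2. The PE-MP libraries had 20.0, 21.4 and 13.5 CPM. Normal chow library 2 was thus the lowest of all 6, below every PE-MP library. The log2 fold change was -3.49 ± 1.08 (SE; 95% interval -6.13 to -0.86; edgeR adjusted p = 0.198), and -4.05 without normal chow library 2 (adjusted p = 0.00936). Cidea and Cidec, genes of lipid droplet proteins that also stand on the adipocyte marker list, had the same low normal chow library and were picked after their values were seen. Cidea had 84.4, 13.5 and 67.8 CPM under normal chow and 1.53, 10.8 and 15.3 CPM under PE-MP chow. Cidec had 60.2, 14.0 and 43.3 CPM, and 5.71, 11.5 and 14.5 CPM. Of the defining adipocyte genes, Lep had 0 counts in every library. Adipoq had 0, 0 and 2 counts under normal chow and 10, 0 and 5 under PE-MP chow. Plin1 had 0 counts in each normal chow library and 7, 0 and 5 under PE-MP chow. The few counts of Adipoq and Plin1 thus lay more on the PE-MP side, the other way from Cidea and Cidec, and were too few to be tested. Of the other markers, Cfd had 9.07, 2.21 and 12.4 CPM under normal chow and 0.243, 1.31 and 1.43 CPM under PE-MP chow, with normal chow library 2 the lowest of its group and no overlap between groups (DESeq2 adjusted p = 0.00147; edgeR adjusted p = 0.184). Retn had 18, 11 and 35 counts against 0 counts in each PE-MP library, and Fabp4 had 3.85 to 4.97 CPM and 3.31 to 4.30 CPM. Of the 9 markers 6 were tested, 5 of them with a negative log2 fold change. Pck1, which hepatocytes also express, was the 1 with a positive value and made up most of the list's sum of 1430.1 to 2739 CPM under normal chow and 2163 to 3470.4 CPM under PE-MP chow. Without Pck1, a choice made after seeing the data, the sum was 158, 34.1 and 129 CPM under normal chow and 10.98, 27.4 and 35.7 CPM under PE-MP chow. In that sum normal chow library 2 lay inside the PE-MP range. The part of fat cell RNA in the Creb3l3 values was not tested.

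**Figure D3:**
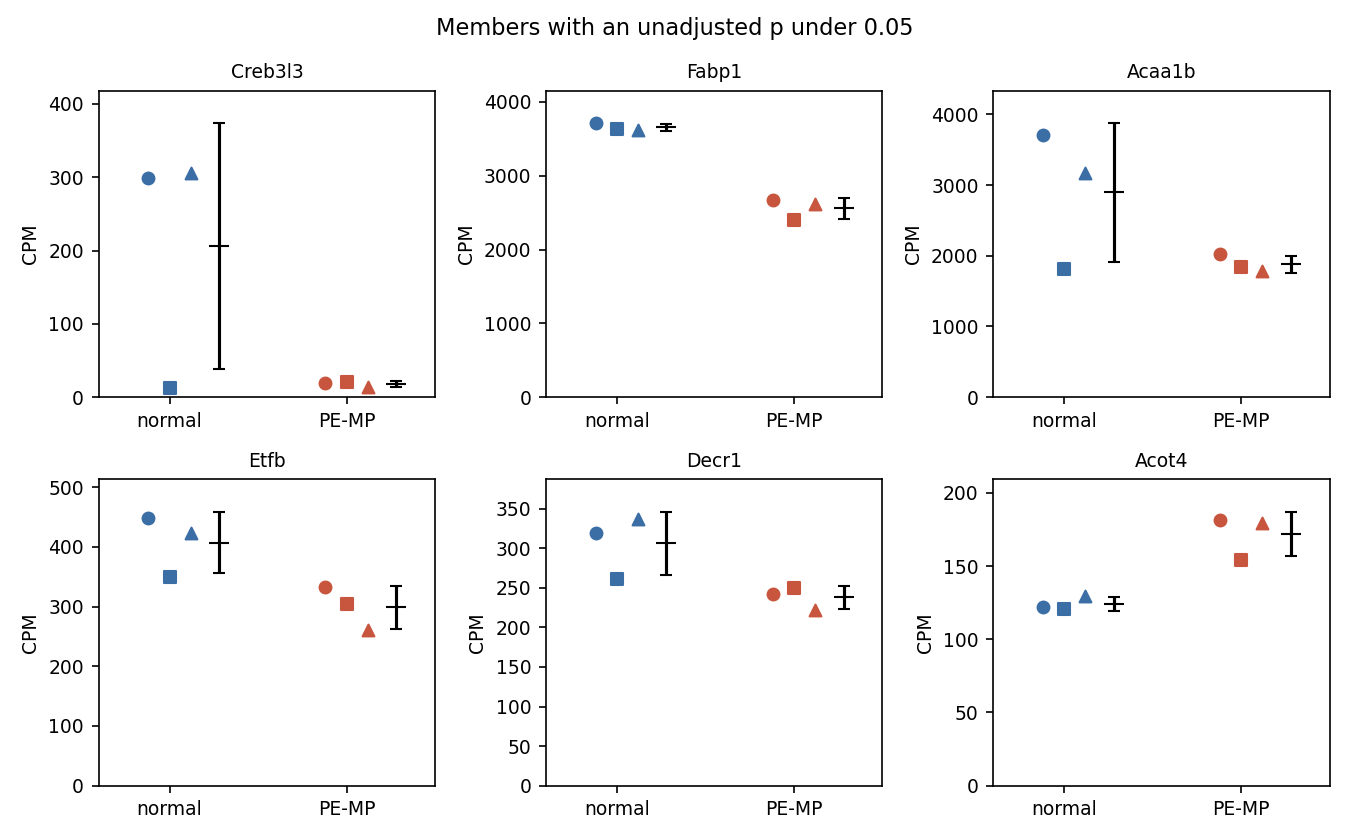
CPM in each library for Creb3l3, Fabp1, Acaa1b, Etfb, Decr1 and Acot4, the 6 genes with an unadjusted p under 0.05, with normal chow in blue and PE-MP chow in red. Creb3l3 and Acaa1b have 1 normal chow library, library 2, at the level of the PE-MP libraries, while Fabp1, Etfb, Decr1 and Acot4 do not overlap between chows.

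Among the genes of uptake, binding and activation, Fabp1 separated the chows and the other genes did not. Fabp1 had 3709.9, 3638 and 3616 CPM under normal chow and 2669.8, 2402 and 2615 CPM under PE-MP chow. Both groups were tight (3654 ± 49.2 and 2562 ± 142 CPM, SD, n = 3 each), and normal chow library 2 lay with its group. The PE-MP mean was 0.701 times the normal chow level, a log2 fold change of -0.51 ± 0.11 (SE; 95% interval -0.78 to -0.24; edgeR adjusted p = 0.135), and it was -0.52 without normal chow library 2. DESeq2 gave an adjusted p of 0.000572 for the same counts.

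Slc27a2, a fatty acid transporter and very-long-chain acyl-CoA synthetase, had 39.5, 56.2 and 20.0 CPM under normal chow and 59.1, 64.2 and 56.0 CPM under PE-MP chow. The lowest PE-MP library lay just under normal chow library 2, and the log2 fold change was 0.63 ± 0.35 (SE; 95% interval -0.20 to 1.47; edgeR adjusted p = 0.386). Acsl1, the main long-chain acyl-CoA synthetase of liver, had 1730.1, 1575 and 1809.5 CPM, and 1903, 1908 and 1546 CPM. Its log2 fold change of 0.07 had an interval of -0.26 to 0.39.

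Cd36, a fatty acid translocase that macrophages, endothelium and fat cells also express, had 114, 75.0 and 137 CPM under normal chow and 76.7, 99.2 and 129.8 CPM under PE-MP chow. The PE-MP libraries lay inside the normal chow range (log2 fold change -0.09, 95% interval -0.74 to 0.56). In bulk liver, fewer cells of a type and less RNA per cell cannot be told apart. The 8 Kupffer cell markers, all 8 with a positive log2 fold change, summed to 99.7 to 136 CPM under normal chow and 141 to 233 CPM under PE-MP chow, and the 8 endothelial markers to 107 to 119.9 and 141 to 185 CPM. Cdh5, an endothelial marker, had 0 counts in normal chow library 1, and no other marker of either list was at 0. Their part in the Cd36 values was not tested.

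The carnitine shuttle showed no separation of the chows. Cpt1a, the outer-membrane palmitoyltransferase that controls entry, had 487, 387 and 517 CPM under normal chow and 501, 616 and 469 CPM under PE-MP chow. Cpt2, its partner on the inner membrane, had 191, 139 and 192 CPM, and 184, 171 and 148 CPM. Slc25a20, the carrier between them, had 222, 157 and 213 CPM, and 177, 180.0 and 154 CPM. In all 3 genes normal chow library 2 was the lowest of its group. Their log2 fold changes were 0.19 ± 0.17, -0.05 ± 0.17 and -0.21 ± 0.16 (SE), with intervals of -0.21 to 0.59, -0.45 to 0.34 and -0.60 to 0.17. Crat, which makes short-chain acylcarnitines, had 105, 49.0 and 39.4 CPM, and 79.7, 23.8 and 66.3 CPM, too wide a spread for a narrow interval (-1.52 to 1.15).

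The 14 genes of mitochondrial oxidation were narrow in range. Their log2 fold changes ran from -0.45 for Etfb to 0.52 for Eci2, 11 of 14 were negative, and 13 of 14 intervals lay between -1 and 1. Normal chow library 2 was the lowest of its group in 13 of the 14. Summed over the 14 genes, the level was 5456, 4418 and 5669.6 CPM under normal chow and 4617, 4845 and 4365 CPM under PE-MP chow (5181 ± 669 and 4609 ± 239.9, SD, n = 3 each). Normal chow library 2 lay within the PE-MP range, and normal chow libraries 1 and 3 above it.

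**Figure D4:**
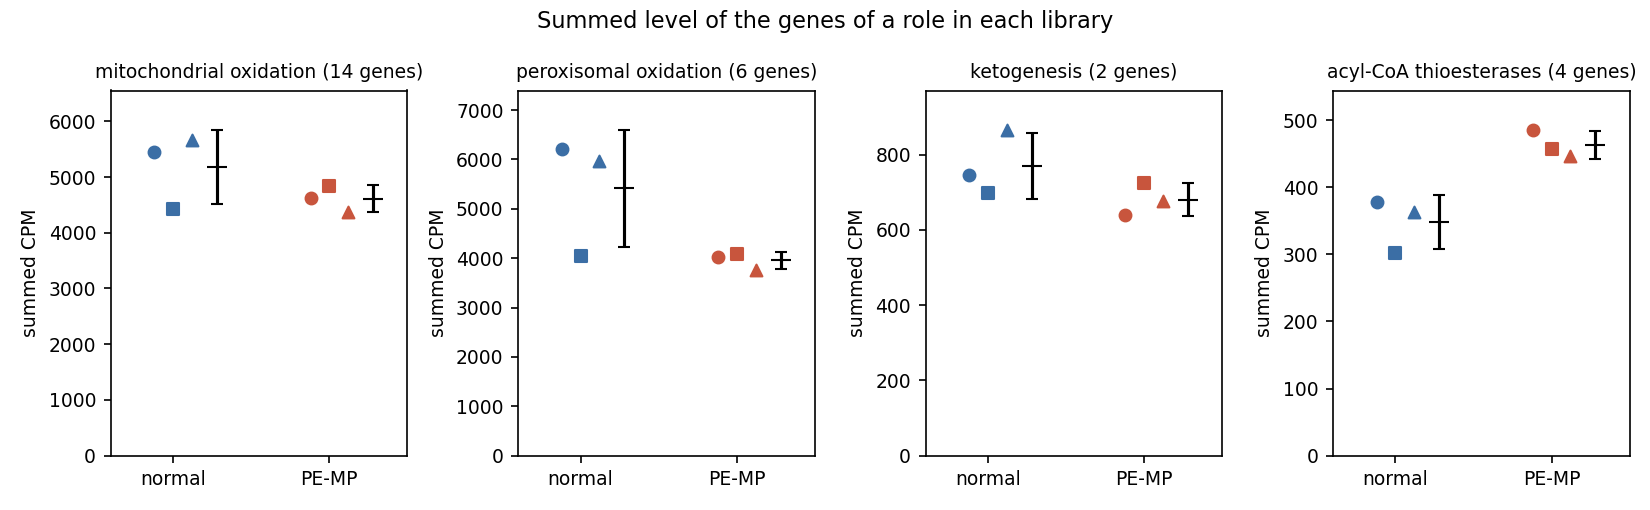
Summed CPM of the genes of mitochondrial oxidation, peroxisomal oxidation, ketogenesis and the acyl-CoA thioesterases in each library, in blue for normal chow and red for PE-MP chow, with the circle, square and triangle for libraries 1, 2 and 3 and black bars for the mean ± SD. The thioesterase sums of the chows do not overlap (302 to 378 and 446 to 486 CPM), while in the other panels normal chow library 2 lies within the PE-MP range.

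Etfb and Decr1 were the genes of mitochondrial oxidation whose groups did not overlap. Etfb encodes the beta subunit of the flavoprotein that takes electrons from the acyl-CoA dehydrogenases. It had 448, 349.5 and 424 CPM under normal chow and 332, 304 and 261 CPM under PE-MP chow, a log2 fold change of -0.45 ± 0.15 (SE; 95% interval -0.80 to -0.09; edgeR adjusted p = 0.211). The gap between the groups was narrow, with normal chow library 2 next to PE-MP library 1. Etfa, the alpha subunit of the same protein, had a log2 fold change of -0.07 (interval -0.44 to 0.30), and Etfdh, the oxidoreductase that receives the electrons, one of 0.03 (interval -0.27 to 0.33). Decr1, the dienoyl-CoA reductase needed for polyunsaturated chains, had 319.5, 261 and 338 CPM, and 242, 250.3 and 222 CPM (log2 fold change -0.36 ± 0.14, SE; 95% interval -0.69 to -0.04; edgeR adjusted p = 0.240).

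Eci1 and Acads had the next smallest p in this role. Eci1, an enoyl-CoA isomerase for unsaturated chains, had 211, 155 and 233 CPM under normal chow and 159, 156 and 144 CPM under PE-MP chow. Acads, the short-chain acyl-CoA dehydrogenase, had 271, 163 and 245 CPM, and 161, 176 and 164 CPM. In both, normal chow library 2 lay inside the PE-MP range and the other normal chow libraries above it. The log2 fold changes were -0.39 ± 0.17 and -0.44 ± 0.20 (SE; edgeR adjusted p = 0.291 and 0.303). Without that library they were -0.55 and -0.63.

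The dehydrogenases for longer chains lay closer to 0. Acadvl, Acadl and Acadm, for very long, long and medium chains, had log2 fold changes of -0.15, -0.13 and -0.02, with the interval of Acadm from -0.38 to 0.33. Hadha and Hadhb, the subunits of the trifunctional protein that carries the later steps for long chains, had -0.04 (interval -0.38 to 0.30) and 0.04 (interval -0.27 to 0.36). Hadh, the short-chain hydroxyacyl-CoA dehydrogenase, had -0.35 (interval -0.81 to 0.11), and the thiolase Acaa2 -0.24 (interval -0.63 to 0.14). Eci2, an isomerase found in mitochondria and peroxisomes, ran from 62.5 to 114 CPM and from 67.5 to 155 CPM. Its log2 fold change of 0.52 had an interval of -0.35 to 1.38.

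All 6 genes of peroxisomal oxidation had a negative log2 fold change, and none passed the adjusted threshold. Their summed level was 6217, 4045 and 5977 CPM under normal chow and 4033, 4081 and 3755 CPM under PE-MP chow (5413 ± 1191 and 3956 ± 176, SD, n = 3 each). Normal chow library 2 again lay among the PE-MP libraries. Acaa1b, a peroxisomal thiolase, made up the largest part. It had 3708, 1811 and 3167 CPM, and 2018, 1837 and 1780.0 CPM, a log2 fold change of -0.62 ± 0.26 (SE; 95% interval -1.24 to -0.01; edgeR adjusted p = 0.276). Without normal chow library 2 this was -0.88 (adjusted p = 0.0333).

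Acaa1a, the paralog of Acaa1b, ran from 289.7 to 562 CPM under normal chow and from 359 to 413 CPM under PE-MP chow (log2 fold change -0.27; -0.52 without normal chow library 2). In GENCODE M21 transcripts, 35.5% of the windows of 50 bases in Acaa1b stood word for word in Acaa1a, and 15.6% of those in Acaa1a stood in Acaa1b. Reads in this shared sequence could be counted for either gene, so the split between them is uncertain. Their ratio was therefore not used.

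Pex11a, a peroxisome division factor, had 257, 172 and 237 CPM under normal chow and 198, 149 and 188 CPM under PE-MP chow. Hsd17b4, the bifunctional enzyme for branched and very long chains, had 561, 476 and 582 CPM, and 471, 512 and 412 CPM. In both genes the groups overlapped, with log2 fold changes of -0.32 ± 0.19 and -0.22 ± 0.14 (SE; edgeR adjusted p = 0.423 and 0.455). Crot, which makes carnitine esters of the shortened chains for export, had 494, 826 and 712 CPM, and 212, 605 and 636 CPM. PE-MP library 1 was low, and the interval of -1.52 to 0.55 was wide. Ehhadh, the inducible bifunctional enzyme, ran from 469 to 739 CPM and from 355 to 775 CPM (log2 fold change -0.12, interval -0.85 to 0.61).

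The genes of ketogenesis overlapped between chows. Acat1, the mitochondrial thiolase that joins acetyl-CoA units, had 475, 442 and 549 CPM under normal chow and 405, 456 and 432 CPM under PE-MP chow. Bdh1, which reduces acetoacetate to beta-hydroxybutyrate, had 271, 257 and 318 CPM, and 235, 270.0 and 244 CPM. In each gene PE-MP library 2 lay above normal chow library 2. The log2 fold changes were -0.18 ± 0.13 (SE; 95% interval -0.49 to 0.12; edgeR adjusted p = 0.488) and -0.17 ± 0.13 (SE; 95% interval -0.48 to 0.13; edgeR adjusted p = 0.511). Both intervals lay well inside a doubling or halving.

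The thioesterases were the role in which all genes had a positive log2 fold change, 4 of 4, though that of Acot2 was -0.0043 with limma-voom. Their summed level was 378, 302 and 363 CPM under normal chow and 486, 456 and 446 CPM under PE-MP chow (348 ± 40.1 and 463 ± 20.4, SD, n = 3 each). Acot4, a peroxisomal thioesterase for dicarboxylic acyl-CoA, had 122, 120.4 and 129.7 CPM, and 182, 154 and 179.6 CPM. Both groups were tight and did not overlap. The PE-MP level was 1.38 times that of normal chow, a log2 fold change of 0.47 ± 0.12 (SE; 95% interval 0.20 to 0.74; edgeR adjusted p = 0.144; DESeq2 adjusted p = 0.0249).

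The other thioesterases varied within each chow. Acot1, the cytosolic enzyme, had 148, 97.3 and 111 CPM under normal chow and 205, 153 and 99.0 CPM under PE-MP chow. Acot2, the mitochondrial one, had 49.4, 33.0 and 45.1 CPM, and 59.1, 40.4 and 31.0 CPM. Acot3, a peroxisomal enzyme, had 57.7, 51.4 and 77.8 CPM, and 39.9, 109 and 137 CPM. In Acot1 and Acot2, PE-MP library 1 was the highest of all 6, whereas in Acot3 it was the lowest. Their log2 fold changes were 0.36 ± 0.29, 0.03 ± 0.27 and 0.61 ± 0.44 (SE; edgeR adjusted p = 0.543, 0.961 and 0.500).

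These genes are paralogs that lie together on chromosome 12, and some of their sequence is shared. Of the 50-base windows of Acot2, 24.5% stood in Acot1, and 17.6% of those of Acot1 stood in Acot2. For Acot3 the share found in any other gene was 19.5%, with 11.2% in Gm49366, and for Acot4 the share in any other gene was 4.87%. Gm49366 overlaps exons of Acot3 and Acot4 on the same strand. It had 0.228, 0.150 and 1.95 CPM under normal chow and 0.592, 2.88 and 0.911 CPM under PE-MP chow. The exons of Acot3 and Acot4 also overlap 4732463B04Rik on the opposite strand, which had 1.86, 2.03 and 3.58 CPM under normal chow and 8.92, 5.16 and 4.75 CPM under PE-MP chow. Its level was far under that of Acot4, and its part in the Acot4 values was not tested, since the sources used here do not give the strand setting of the counting. Etfb had 67.3% of its windows in Gm45233, an overlapping gene on the same strand that had no row under that name in the count table.

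The remaining PPARalpha targets did not separate the chows. Pdk4, the kinase that turns off pyruvate dehydrogenase in fasting, had 14.2, 15.4 and 5.02 CPM under normal chow and 26.1, 5.31 and 2.82 CPM under PE-MP chow. It varied more within each chow than between them (log2 fold change -0.02, 95% interval -2.16 to 2.13). The same libraries, normal chow 3 and PE-MP 2 and 3, were those with high Dbp, a clock output gene, at 46.2, 19.2 and 41.3 CPM, against 2.08 to 2.26 CPM in the others. Arntl, a core clock gene, was low there, at 3.52, 5.56 and 1.65 CPM, against 9.60 to 13.3 CPM. These clock genes were picked after their values were seen. The labels give no time of tissue collection, and the part of the clock in the Pdk4 values was not tested. Vnn1, a pantetheinase of the cell surface, had 71.0, 43.4 and 65.8 CPM, and 69.5, 51.7 and 85.0 CPM (log2 fold change 0.19, interval -0.39 to 0.78).

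**Figure D5:**
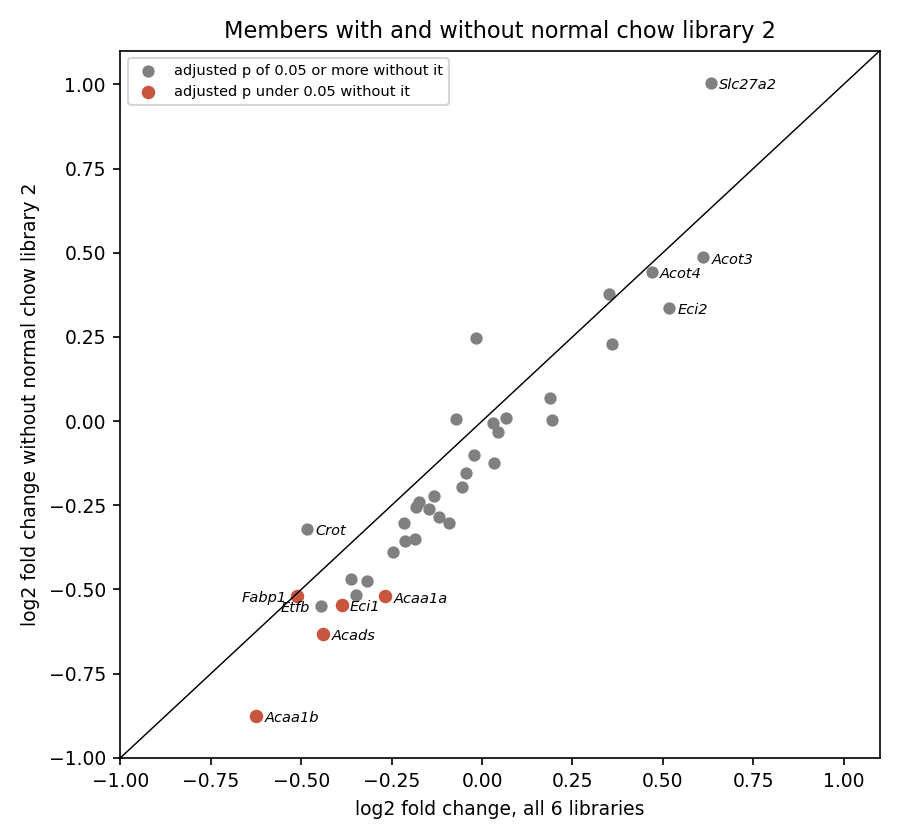
Log2 fold change of each gene with all 6 libraries (horizontal) and without normal chow library 2 (vertical), and the line of equal values. Red points have an edgeR adjusted p under 0.05 without that library. The value was lower without that library for 33 of the 38 genes, and Creb3l3, at -3.49 and -4.05, is off the scale and not drawn. That library was the lowest of its group for 31 of the 38 genes, so lower values without it were in part set in advance.

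Levels of different genes were set side by side per kilobase of the longest annotated transcript. Under normal chow, Fabp1 stood highest at 6608 ± 89.0 CPM per kilobase, followed by Acaa1b at 1714 ± 579, Acaa2 at 654 ± 116, Etfb at 456 ± 57.6 and Acsl1 at 300.4 ± 21.0 (SD, n = 3 each). Pdk4 stood lowest at 3.31 ± 1.63. Under PE-MP chow the order of the first 5 genes was the same, with Fabp1 at 4633 ± 256, Acaa1b at 1112 ± 73.6, Acaa2 at 552 ± 29.8, Etfb at 335 ± 40.2 and Acsl1 at 315 ± 36.6. There, Etfb and Acsl1 did not differ beyond their spread.

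The wider pathway, 96 further genes of which 94 were tested, was counted in the same way. None was called in either direction by edgeR. DESeq2 called 2 of the 94 lower, Sirt3 and Mgll, and 0 higher, where it called 3.48% and 3.1% of all genes. In edgeR, 12 were lower (12.8%, beside 8.82% of all genes) and 2 higher (2.13%, beside 9.1%) at an unadjusted p under 0.05, and the median log2 fold change was -0.14. Without normal chow library 2, 28 of the 94 were lower and 5 of the 94 higher at that p, beside 13.7% and 14.7% of all genes. Again the share of lower genes lay above that of all genes, and the share of higher genes below it. In that fit 10 of the 94 were called lower and 0 higher, beside 3.27% and 2.38% of all genes. Normal chow library 2 was the lowest of its group for 57 of the 94 (60.6%, against 38.7% of all genes). The rise in lower genes without it was thus in part set in advance here too. Of 19 further genes of mitochondrial oxidation, 5 were lower (26.3%, beside 8.82% of all genes) and 0 higher (beside 9.1%) at the unadjusted threshold, with a median of -0.29. Without normal chow library 2 these counts were 7 and 1, and 2 genes were called lower. Sirt3, the mitochondrial deacetylase, had 50.1, 59.1 and 59.2 CPM under normal chow and 32.4, 31.7 and 40.9 CPM under PE-MP chow. Its groups did not overlap, and its log2 fold change was -0.68 ± 0.15 (SE; edgeR adjusted p = 0.132; DESeq2 adjusted p = 0.00720). Hsd17b10 and Acad12 had log2 fold changes of -0.64 ± 0.22 and -0.76 ± 0.27.

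Of 25 further peroxisomal genes, 4 were lower (16%, beside 8.82% of all genes) and 0 higher (beside 9.1%) at the unadjusted threshold (median -0.20). Without normal chow library 2 these counts were 11 and 1 (beside 13.7% and 14.7% of all genes), and 4 genes were called lower (beside 3.27%). Amacr, the racemase for branched chains, had a log2 fold change of -0.33 ± 0.12, Acox2, the branched-chain acyl-CoA oxidase, one of -0.65 ± 0.25, and Decr2, the peroxisomal dienoyl-CoA reductase, one of -0.36 ± 0.15. Of 7 further genes of ketone body synthesis, use and transport, 0 passed in either direction (median -0.23; 1 lower, also called, when normal chow library 2 was left out), with Bdh2 at -0.23 ± 0.14 and Oxct1 at -0.29 ± 0.20. Of 10 further thioesterases, 0 were lower (beside 8.82% of all genes) and 1, Acot5, higher (10%, beside 9.1%), with a median of 0.06. With normal chow library 2 left out, 2 were lower and 1 higher (beside 13.7% and 14.7% of all genes), with a median of -0.11. Acot5, a neighbour of Acot4, had 1.74, 0.915 and 1.75 CPM under normal chow and 2.58, 2.32 and 2.51 CPM under PE-MP chow, a log2 fold change of 0.75 ± 0.29. Acot13 and Acot7 had -0.35 ± 0.16 and -0.42 ± 0.24, so the positive sign of Acot1 to Acot4 did not extend to every thioesterase measured.

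Of 33 further PPARalpha targets and partners, 3 were lower (9.09%, beside 8.82% of all genes) and 1 higher (3.03%, beside 9.1%) at the unadjusted threshold (median -0.14). When normal chow library 2 was left out, 7 were lower and 2 higher (beside 13.7% and 14.7% of all genes), and 3 were called lower (beside 3.27%). Mgll, the monoglyceride lipase, had 378, 229 and 412 CPM under normal chow and 188, 149 and 182 CPM under PE-MP chow. Its groups did not overlap, and its log2 fold change was -0.97 ± 0.23 (SE; edgeR adjusted p = 0.141; DESeq2 adjusted p = 0.00643). Ces1g, a carboxylesterase, had a log2 fold change of -0.64 ± 0.22. Rxrb, a retinoid X receptor, had 23.3, 24.7 and 25.4 CPM, and 18.9, 21.0 and 16.5 CPM (log2 fold change -0.38 ± 0.13).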

How the data were processed

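Poly(A)-selected liver RNA was sequenced with a strand-keeping kit, per the labels' protocols. The authors deposited unnormalised whole-number counts for each gene, and the per-library values equal the whole table for 6 of 6 libraries. The submitters' processing notes name bcl2fastq and build GRCm39. An aligner, a counter, an annotation and a strand setting were not given in the sources used.

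Chows were compared with edgeR 4.0.16 in R 4.3.3 (quasi-likelihood F test, robust, TMM factors, default expression filter, 18043 genes), with Benjamini-Hochberg adjustment over all genes tested and a threshold of 0.05. Tests were two-sided, and levels are CPM computed here from the deposited counts. The fits were also run on simulated counts. These held no outlying library, unlike the data, and their outcome is not used here. Alternatives were RLE and upper-quartile factors, no filter, a strict filter (CPM 1 or more in each library of a chow), no mitochondrially encoded and 18S rows, DESeq2 1.42.0, limma-voom (limma 3.58.1), a replicate block, each library left out, and an adjusted p of 0.1.

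Genes and lists were chosen with earlier results of these data known, so no list is tested. Values by library are given for up to 4 genes of a role with the smallest p, and up to 3 further genes of each pathway list are named. A few genes are not reported here by name, and the counts include them. Shared sequence was read from GENCODE M21 transcripts (GRCm38) in place of a planned protein comparison, for which no sequence table was used. Transcript lengths came from the same annotation, and promoters from RefSeq. Same-numbered libraries did not deviate together in every pair (r = 0.003, 0.040 and 0.136), so the numbers were not taken as pairs.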

Additional observations from a re-analysis of the deposited data

How the results depend on the processing

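Counts over all genes moved with the method. Called lower and higher were 1 and 2 genes with RLE factors, 8 and 15 with no filter, 11 and 11 with the strict filter, 627 and 559 with DESeq2, 9 and 6 with limma-voom and 29 and 24 at an adjusted p of 0.1. Leaving out each library gave 0 to 623 lower and 1 to 452 higher. Among the 38 genes, DESeq2 called 2 lower and 1 higher, and leaving out a library gave 0 to 6 called lower. At an unadjusted p under 0.05, limma-voom gave 3 lower, and leaving out a library gave 1 to 13 lower and 1 to 2 higher. Among the other pathway genes, DESeq2 called 2 lower. Leaving out a library there gave 0 to 10 called lower, 0 to 1 called higher, and, unadjusted, 2 to 28 lower and 0 to 5 higher. The cause was not tested.

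With the replicate number as a block, which the check of paired numbers did not back, 0 genes of all were called higher. At an unadjusted p under 0.05, 2 of the 38 were then lower and 3 higher. The share of all genes at that p was not counted for the block or for limma-voom. Nor was it counted for the fits that left out a library other than normal chow library 2. The counts among the 38 and the other pathway genes in those fits therefore cannot be set against all genes.

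Medians with a library left out ran from -0.27 to 0.12 for the carnitine shuttle, from -0.15 to 0.11 for uptake, binding and activation, from -0.24 to -0.088 for mitochondrial oxidation, from -0.25 to -0.086 for ketogenesis, from -0.25 to -0.073 for the 38 genes together and from -0.65 to 0.33 for the other PPARalpha targets. Taking out a trend with transcript length and GC content, an alternative chosen after seeing the data, moved the median of uptake, binding and activation to -0.26, of the carnitine shuttle to -0.18, of mitochondrial oxidation to -0.22, of ketogenesis to -0.30, of the thioesterases to 0.26, of the other PPARalpha targets to -0.07, of the 38 genes to -0.24 and of all genes tested to -0.08. Of single genes, the log2 fold change turned sign with upper-quartile factors for Acadm (0.0056) and Pdk4 (0.010), with no filter for Pdk4 (0.0038) and with limma-voom for Acot2 (-0.0043). With a library left out it ran from -0.31 to 0.11 for Cd36, -0.20 to 0.022 for Cpt2, -0.50 to 0.35 for Crat, -0.10 to 0.12 for Acadm, -0.15 to 0.029 for Hadha, -0.031 to 0.12 for Hadhb, -0.21 to 0.0063 for Etfa, -0.053 to 0.094 for Etfdh, -0.41 to 0.12 for Ehhadh, -0.24 to 0.22 for Acot2 and -1.51 to 0.43 for Pdk4. All of these genes had intervals that held 0.

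With 3 libraries a chow and the spread seen here, single genes carry standard errors of 0.11 to 1.08 on the log2 scale, which limits what can be called.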

Other observations

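Exons of 13 of the 38 genes overlap another gene on the opposite strand in GENCODE M21, and 9 such overlapping genes were tested. The 3 PE-MP libraries all lay above the 3 normal chow libraries for 4 of them and all below for 1, 4930579G24Rik opposite Etfdh. Among all genes tested, 14.2% lay above in this way and 11.8% below. Dvl2, opposite Acadvl, had 5.70, 4.69 and 3.95 CPM under normal chow and 8.44, 7.16 and 9.44 CPM under PE-MP chow (log2 fold change 0.80 ± 0.20, SE; edgeR adjusted p = 0.145). Gm16984, opposite Eci2, had 0.314, 0.566 and 0.237 CPM, and 1.30, 0.842 and 1.31 CPM (log2 fold change 1.64 ± 0.40, SE; edgeR adjusted p = 0.143). Gm15743, opposite Bdh1, had 0.628, 0.666 and 0.247 CPM and 1.18 CPM in the highest of the PE-MP libraries (log2 fold change 1.08 ± 0.40, SE; edgeR adjusted p = 0.237). The fourth was 4732463B04Rik, opposite Acot3 and Acot4. None passed the adjusted threshold, and they were looked at after the values of the 38 genes were known.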
